A study of Homo sapiens with 12 samples.

Results

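The genes described here are 31 gene records, all but 1 of them typed as noncoding by GENCODE, taken by name from the 57500 genes counted in each library. They are the genes whose symbol is SNHG followed by a number (small nucleolar RNA host gene), together with GAS5, ZFAS1, EPB41L4A-AS1, DANCR, MALAT1 and NEAT1, with Ensembl identifiers mapped to symbols through GENCODE release 29. The rule reads names and no measured value, but the members were chosen with earlier results of these data known. The 31 records carry 30 symbols, because SNHG28 has 2 identifiers. RNA was sequenced from HepG2 cells, a human hepatocarcinoma line, in 3 groups of 4 libraries, to compare cells with less and with more thiosulfate sulfurtransferase (TST, also called rhodanese, which turns cyanide into thiocyanate). WT was the wild-type control, shTST cells had received an shRNA plasmid against TST by lentivirus, and overTST cells a lentiviral vector that drives a codon-optimized TST sequence from the CMV promoter, with blasticidin selection of transduced cells. All groups were kept in medium with 400 µM glycine for 24 h. The sources used here do not say whether WT cells carried an empty vector or whether the engineered cells were clones. The general statistics statement of the study counts experiments done on separate days as biological replicates, and the labels do not say how the 4 libraries of a group relate to days or cultures. The p-values measure the spread between these libraries, which may be technical.

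Most of these genes are hosts of small nucleolar RNAs (snoRNAs). A host gene is transcribed and spliced, its introns are trimmed to release snoRNAs, and the snoRNAs guide chemical modification of ribosomal RNA, box C/D snoRNAs directing ribose methylation and box H/ACA snoRNAs directing pseudouridylation. The joined exons encode no long protein, and several of these spliced RNAs are known to start with a pyrimidine tract like that of ribosomal protein mRNAs and to be removed by nonsense-mediated decay when they are translated. MALAT1 and NEAT1 host no snoRNA and remain in the nucleus, MALAT1 in nuclear speckles and NEAT1 as the scaffold of paraspeckles.

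The libraries held 28866175 to 45120508 counts in WT, 27527854 to 33865386 in shTST and 22911380 to 27414142 in overTST. TST, the targeted gene, was at 49.0 ± 2.59 CPM in WT, 34.1 ± 1.62 in shTST and 57.9 ± 4.9 in overTST (SD, n = 4 each). The overTST vector carries a codon-optimized sequence, and how many of its reads were counted under TST was not tested. The overTST value may therefore not measure the degree of overexpression, which the paper checked by western blots. CPM are counts scaled to a library size of 1000000 after TMM scaling of all 12 libraries. The 9 hepatocyte markers examined were counted in every library, with a summed level of 21721 to 28945 CPM over the 3 groups, whereas THY1 and KDR, markers of fibroblasts and endothelial cells, were at 0 in every library and PTPRC, of leukocytes, was at 0 in every WT and overTST library. The summed level of the 5 fibroblast markers was 21.6 to 25.2 CPM in WT, 17.0 to 19.4 in shTST and 15.9 to 17.9 in overTST, that of the 4 endothelial markers 2.51 to 3.29, 1.81 to 2.16 and 3.4 to 3.91, and that of the 4 leukocyte markers 1603 to 1679, 1333 to 1489 and 1502 to 1748. Nearly all of the leukocyte sum was LYZ, the lysozyme gene, with means of 1640, 1420 and 1620 CPM in WT, shTST and overTST, most of the fibroblast sum was PDGFRB, a growth factor receptor gene, with 21.8, 16.6 and 16.3 CPM, and most of the endothelial sum was PECAM1, an adhesion protein gene, with 2.14, 1.61 and 3.28 CPM. The part of these markers in the results was not tested. Across genes, change relative to the mean of the WT libraries fell with exonic length in every overTST library (Spearman's rho −0.369 to −0.268). The same rho was −0.146 to −0.037 in shTST. Each WT library was set against the mean of the other WT libraries, with a rho of −0.241 to 0.220. For the members, values after a correction of this trend are given where they changed a call or moved a called value by over 1.5 times. They are also given for MALAT1 and NEAT1. The values and counts of neighbouring genes, snoRNA genes, lists and other annotated groups are given without this correction, and how it would change them is not reported.

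Before the levels, the starts of the host genes that were higher in both engineered lines are shown, since pyrimidine tracts at this place are a known feature of the family. The windows cover 10 bases before and 20 bases from the transcription start annotated by RefSeq (GRCh38.p14), written 5′ to 3′ on the strand of the gene. Capitals mark the longest unbroken run of C and T that begins between 2 bases before and 8 bases after that start. NEAT1 was also higher in both lines and is named only.
SNHG1 (chr11:62855866-62855895, minus strand): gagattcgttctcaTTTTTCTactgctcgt
SNHG5 (chr6:85678714-85678743, minus strand): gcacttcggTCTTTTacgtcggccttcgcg
SNHG12 (chr1:28581854-28581883, minus strand): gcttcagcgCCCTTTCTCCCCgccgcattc
SNHG16 (chr17:76557754-76557783, plus strand): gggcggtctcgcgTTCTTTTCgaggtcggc
SNHG19 (chr16:2155339-2155368, minus strand): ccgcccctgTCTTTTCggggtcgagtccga
ZFAS1 (chr20:49278632-49278661, plus strand): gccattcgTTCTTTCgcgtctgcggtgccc
GAS5 (chr1:173869026-173869055, minus strand): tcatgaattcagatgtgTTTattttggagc

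The runs in capitals are 12 bases long in SNHG12, 8 in SNHG16, 7 in SNHG1, SNHG19 and ZFAS1, 6 in SNHG5 and 3 in GAS5. A C at the annotated start followed by 4 more pyrimidines, read on the strand of the gene only, is present in 1429 of the 35116 promoters of the RefSeq table (4.07%). Counted in the same way, by entry, 6 of the 27 member entries have it (22.2%). Of the 25 member symbols with an entry, 6 have it (24%), namely SNHG4, SNHG5, SNHG12, SNHG18, SNHG19 and ZFAS1. SNHG4 did not pass the test in any comparison and SNHG18 had no counts, so the tract was also present in members that were not called. RefSeq places the start of GAS5 at base 173869045 and the gene record of the files at 173868882, and the 2 records also differ for ZFAS1, SNHG12, SNHG1, SNHG5 and SNHG16 and match for SNHG19, so these windows describe the annotation, not measured start sites.

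Of the 31 records, 25 passed the filter on low counts and were tested, the same 25 in each comparison. SNHG18, SNHG27 and the SNHG28 record ENSG00000256029 had no count in any library, and SNHG15 and the SNHG28 record ENSG00000188004 had 1 count in 1 library. SNHG9, the host of SNORA78, had 1 to 11 counts per library, with 6 in all 4 WT libraries together, 22 in shTST and 16 in overTST, and was not tested. Among the tested members only SNHG22 had a library under the CPM that the filter asked for. Set per base of exon, as TPM (counts over exonic length, scaled to a sum of 1000000 per library and computed here from the files), the levels in WT ran from 147 ± 14.9 TPM for DANCR and 122 ± 17.6 for SNHG5 down to 0.434 ± 0.188 for SNHG22 (SD, n = 4). Behind DANCR and SNHG5, whose WT libraries overlapped, came SNHG16 (74.2 TPM), SNHG19 (71.5) and SNHG6 (67.5), which overlapped each other in order, and then SNHG8 (43.6), ZFAS1 (39.4) and MALAT1 (25.6). MALAT1 did not overlap its neighbours in that order, which were ZFAS1 above and SNHG7 (19.4 TPM) below. NEAT1 (2.10 TPM) and SNHG14 (2.02 TPM), the longest members, overlapped in WT. The exonic length used for TPM includes bases shared with exons of other genes, 0% in SNHG19, 36.4% in SNHG6 and 46.9% in ZFAS1. How reads on shared bases were counted is not given in the sources used here, and its part in this order was not tested.

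**Figure D1:**
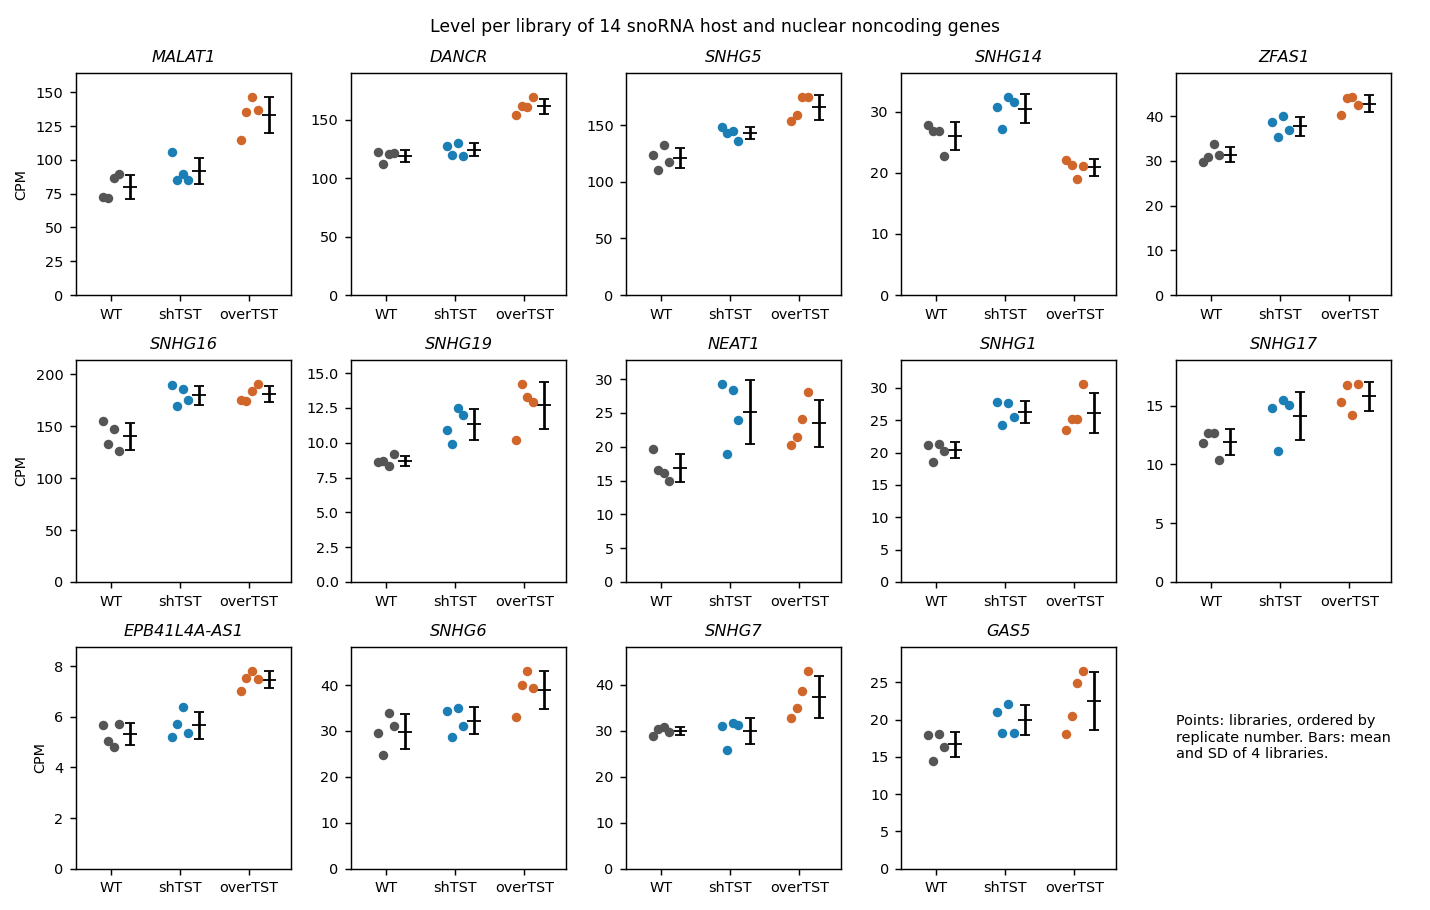
CPM (y axis, from 0) of 14 members in each library of WT, shTST and overTST (x axis), with the mean and SD of 4 libraries as bars. SNHG1, SNHG5, SNHG16, SNHG19, ZFAS1 and GAS5 have every library of both engineered lines above every WT library, and in SNHG14 the shTST libraries are the highest on average and the overTST libraries the lowest.

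With TST silencing, 9 of the 25 tested members rose and none fell (edgeR's quasi-likelihood test, Benjamini-Hochberg adjusted p of 0.05 or less over all 14584 genes tested). Over all genes tested, 6.69% were higher and 9.4% lower by the same rule. At an unadjusted p under 0.05, 14 members were higher and 0 lower, and at the adjusted threshold DESeq2 gave 10 higher and 0 lower and limma-voom 9 and 0. The median log2 fold change of the tested members was 0.20, against 0.004 over all genes tested. A value above 0 was found in 22 of the 25 and in 50.9% of all genes tested. In 7 of the 25, every shTST library lay above every WT library, which held for 8.37% of all genes tested, and none had every library below, which held for 10.8%. With TST overexpression, 16 members rose and 1 fell. Over the 14421 genes tested there, 15.7% were higher and 18.2% lower. The median was 0.36 for the members and 0.002 for all genes, and 20 of the 25 had a value above 0, against 50.3% of all genes. In 15 members every overTST library lay above WT (14.2% of all genes) and in 1 every library lay below (16.2% of all genes). Both comparisons used the same WT libraries and so are not independent of each other. In these bulk samples more RNA per cell and more cells that express a gene cannot be told apart.

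**Figure D2:**
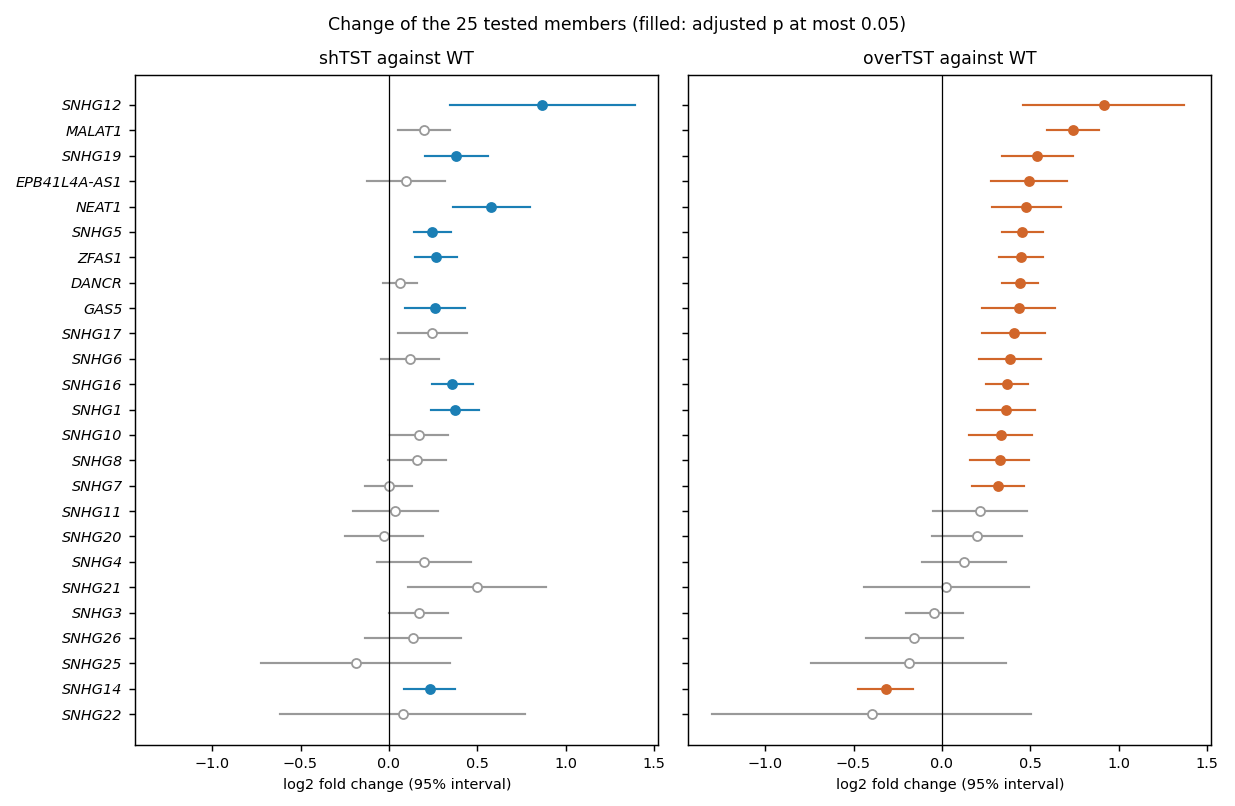
log2 fold change (x axis) with its 95% interval for each of the 25 tested members (y axis, ordered by the change in overTST), in shTST against WT (left) and overTST against WT (right). Filled points passed an adjusted p of 0.05, 9 in shTST, all above 0, and 17 in overTST, of which 1, SNHG14, is below 0.

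The host genes that rose in both lines are described first. SNHG16 (chr17:76557766-76565348, plus strand), the host of the SNORD1 box C/D snoRNAs, is one of the most counted members. It was at 155, 133, 148 and 127 CPM in WT, 189, 169, 186 and 176 CPM in shTST and 175, 174, 184 and 191 CPM in overTST. Every library of both engineered lines lay above the highest WT library. The log2 fold change was 0.36 (standard error 0.056, edgeR adjusted p = 0.000186) in shTST and 0.37 (standard error 0.058, edgeR adjusted p = 3.6e-05) in overTST. The engineered lines did not separate from each other, with a difference (shTST minus overTST) of −0.01 and a 95% interval from −0.12 to 0.11.

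SNHG5 (chr6:85660950-85678736, minus strand) is the host of SNORD50. Its levels were 123, 111, 132 and 117 CPM in WT, 148, 143, 145 and 136 CPM in shTST and 154, 159, 174 and 175 CPM in overTST. The 3 groups did not overlap, with WT lowest, shTST between and overTST highest. SNHG5 rose by 0.25 (standard error 0.050, edgeR adjusted p = 0.0021) on the log2 scale with shTST and 0.46 (standard error 0.057, edgeR adjusted p = 2.31e-06) with overTST. In the direct test shTST was lower than overTST by a log2 difference of −0.21 (standard error 0.054, edgeR adjusted p = 0.00368), and by −0.14 after the length correction (edgeR adjusted p = 0.0361).

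ZFAS1 (chr20:49278178-49295738, plus strand) carries the SNORD12 snoRNAs and runs antisense to the start of ZNFX1, a helicase-like zinc finger gene. Counts were scaled to 29.6, 30.9, 33.8 and 31.3 CPM in WT, 38.6, 35.2, 40.1 and 36.9 CPM in shTST and 40.2, 44.2, 44.3 and 42.5 CPM in overTST. As in SNHG5, the groups did not overlap and stood in the order WT, shTST, overTST. ZFAS1 rose by 0.27 (standard error 0.058, edgeR adjusted p = 0.0035) on the log2 scale in shTST and by 0.45 (standard error 0.061, edgeR adjusted p = 5.96e-06) in overTST. Its difference between the engineered lines was −0.18 (standard error 0.058, edgeR adjusted p = 0.0175). That last call was lost without shTST replicate 2 (edgeR adjusted p = 0.0744) or 4 (0.0519), without overTST replicate 2 (0.0536) or 3 (0.0606), and with no filter (0.076), and after the length correction the difference was −0.07 (0.342). Exons of other genes cover 46.9% of the exonic bases of ZFAS1, 26.1% on the opposite strand, and the sources used here do not give the use of strand in counting. ZNFX1 did not pass in either comparison with WT.

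SNHG1 (chr11:62851988-62855914, minus strand) holds a row of box C/D snoRNAs in its introns, and its start lies 188 bases from that of SLC3A2, the heavy chain of amino acid transporters. SNHG1 was at 21.2, 18.6, 21.4 and 20.3 CPM in WT, 27.8, 24.3, 27.7 and 25.5 CPM in shTST and 23.6, 25.2, 25.2 and 30.6 CPM in overTST. Both engineered lines lay above WT and overlapped each other. The log2 fold changes were 0.37 (standard error 0.066, edgeR adjusted p = 0.00061) in shTST and 0.36 (standard error 0.079, edgeR adjusted p = 0.00102) in overTST, and the direct difference was 0.01 with a 95% interval from −0.14 to 0.17. SLC3A2 did not pass in any of the 3 comparisons.

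SNHG19 (chr16:2154797-2155358, minus strand), the host of SNORD60, is one of the shortest members, with 342 exonic bases. Its levels were 8.64, 8.67, 8.32 and 9.17 CPM in WT, 10.9, 9.92, 12.5 and 11.98 CPM in shTST and 10.2, 14.2, 13.3 and 12.96 CPM in overTST. The lowest engineered library, shTST replicate 2, was above the highest WT library. SNHG19 rose by 0.38 (standard error 0.086, edgeR adjusted p = 0.00423) in shTST and 0.54 (standard error 0.097, edgeR adjusted p = 0.000139) in overTST, and by 0.34 in overTST after the length correction (edgeR adjusted p = 0.00772). TRAF7, an E3 ubiquitin ligase gene that starts 340 bases away on the opposite strand, fell in the same comparisons, by 0.22 on the log2 scale in shTST (edgeR adjusted p = 0.00275) and by 0.20 in overTST (edgeR adjusted p = 0.00225).

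GAS5 (chr1:173863900-173868882, minus strand), growth arrest specific 5, is known as a host of many box C/D snoRNAs, none of which the annotation used here places inside its record. The libraries gave 17.99, 14.5, 18.03 and 16.3 CPM in WT, 21.01, 18.2, 22.1 and 18.3 CPM in shTST and 18.1, 20.5, 24.95 and 26.5 CPM in overTST. The engineered lines lay above WT, by a narrow margin, since the highest WT library was at 18.03 CPM and the lowest overTST library at 18.06. The spread in overTST was wide, with a mean of 22.5 ± 3.91 CPM against 16.7 ± 1.68 in WT (SD, n = 4). GAS5 rose by 0.26 (standard error 0.082, edgeR adjusted p = 0.0319) with shTST and 0.43 (standard error 0.099, edgeR adjusted p = 0.00147) with overTST. The call with shTST was lost without WT replicate 2 (edgeR adjusted p = 0.104), without WT replicate 4 (0.068), without shTST replicate 1 (0.0941), without shTST replicate 3 (0.117) and in a fit of all 12 libraries (0.0751). With overTST it passed under every alternative tried.

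SNHG12, which carries the box H/ACA snoRNAs SNORA44 and SNORA61, was low and showed the highest fold change among the members that passed, at 0.781 to 1.32 CPM in WT, 1.04 to 2.79 in shTST and 1.49 to 2.36 in overTST. The log2 fold change was 0.87 (standard error 0.25, edgeR adjusted p = 0.0211) in shTST, where 1 library overlapped WT, and 0.92 (standard error 0.22, edgeR adjusted p = 0.00236) in overTST, where none did. Without shTST replicate 1 the first call was lost (edgeR adjusted p = 0.115), as it was without WT replicate 1 (0.0582). TRNAU1AP, a selenocysteine tRNA-associated protein gene that overlaps the locus on the opposite strand, had a log2 fold change of 0.22 in overTST (edgeR adjusted p = 0.0407), and its exons share 0.237% of the exonic bases of SNHG12.

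Of the members called in overTST, 8 others rose there and did not pass in shTST. The direct test of the lines passed for DANCR, MALAT1, EPB41L4A-AS1, SNHG6 and SNHG7 and not for SNHG17 (edgeR adjusted p = 0.208), SNHG8 (0.115) or SNHG10 (0.137). DANCR (chr4:52712404-52720351, plus strand), the host of SNORA26 and the member with the highest TPM in WT, was at 122, 112, 121 and 122 CPM in WT, 128, 120.0, 130.3 and 119 CPM in shTST and 154, 162, 161 and 169 CPM in overTST. Its shTST libraries overlapped WT and its overTST libraries lay above all others. Against WT the log2 fold change was 0.06 (standard error 0.046, edgeR adjusted p = 0.373) in shTST, with a 95% interval from −0.03 to 0.16, and 0.44 (standard error 0.050, edgeR adjusted p = 6.53e-07) in overTST. The direct difference was −0.38 (standard error 0.047, edgeR adjusted p = 2.32e-06).

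MALAT1 (chr11:65497762-65506516, plus strand) had the smallest p of all members in overTST. It was at 72.6, 71.5, 86.3 and 89.2 CPM in WT, 106, 85.4, 89.8 and 85.2 CPM in shTST and 115, 136, 146 and 137 CPM in overTST. Only overTST stood apart from WT, and shTST replicate 1, at 106 CPM, lay above the other shTST libraries. The log2 fold change was 0.74 (standard error 0.072, edgeR adjusted p = 9.1e-08) in overTST and 0.20 (standard error 0.071, edgeR adjusted p = 0.0598) in shTST, with a direct difference of −0.54 (standard error 0.076, edgeR adjusted p = 9.73e-06). The shTST value lay close to the threshold, and 11 of the 19 alternatives put it past it, among them the length correction (0.22, edgeR adjusted p = 0.038), the replicate block (edgeR adjusted p = 0.0346), DESeq2 (adjusted p = 0.046) and leaving out WT replicate 3 (edgeR adjusted p = 0.0294), WT replicate 4 (0.0186), shTST replicate 2 (0.0367) or shTST replicate 4 (0.0485). Its record has 8755 exonic bases. The length correction moved the change of MALAT1 in overTST from 0.74 to 0.87.

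NEAT1 (chr11:65422774-65445540, plus strand) rose in both lines. Its libraries were at 19.7, 16.6, 16.2 and 14.9 CPM in WT, 29.3, 18.96, 28.4 and 23.995 CPM in shTST and 20.3, 21.5, 24.1 and 28.05 CPM in overTST. In shTST 1 library, replicate 2 at 19.0 CPM, fell below the highest WT library, and in overTST all were above WT. NEAT1 rose by 0.58 (standard error 0.10, edgeR adjusted p = 0.000684) in shTST and 0.48 (standard error 0.094, edgeR adjusted p = 0.000392) in overTST, and by 0.70 in overTST after the length correction (edgeR adjusted p = 1.03e-05). The direct difference of 0.10 did not pass and had a 95% interval from −0.12 to 0.33, and with the length correction it was −0.10. The record spans both the short and the long form of NEAT1, which a gene count does not separate.

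EPB41L4A-AS1 (chr5:112160526-112164276, plus strand), the host of SNORA13, was at 5.66, 5.05, 4.82 and 5.7 CPM in WT, 5.19, 5.73, 6.38 and 5.34 CPM in shTST and 7.02, 7.54, 7.82 and 7.5 CPM in overTST. The shTST and WT libraries overlapped and every overTST library was higher. Its log2 fold changes were 0.10 (standard error 0.11, edgeR adjusted p = 0.585) in shTST, 0.49 (standard error 0.10, edgeR adjusted p = 0.000786) in overTST and −0.40 (standard error 0.10, edgeR adjusted p = 0.00374) in the direct test. Of its exonic bases, 49.6% lie opposite exons of EPB41L4A, which had a mean of 8.08 counts per library.

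SNHG6, the host of SNORD87, had 29.6, 24.9, 33.9 and 31.1 CPM in WT, 34.3, 28.6, 35.02 and 31.1 CPM in shTST and 33.1, 39.99, 43.1 and 39.4 CPM in overTST. In overTST 3 of the libraries lay above every WT library. It passed in overTST, with a change of 0.39 (standard error 0.084, edgeR adjusted p = 0.000946) on the log2 scale and 0.21 after the length correction (0.0301), not in shTST (0.12, edgeR adjusted p = 0.341), and the direct difference was −0.27 (standard error 0.085, edgeR adjusted p = 0.0163). The direct call was lost without shTST replicate 2 (edgeR adjusted p = 0.0719) or overTST replicate 3 (0.0826), and after the length correction the difference was −0.12 (0.222).

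SNHG7 (chr9:136721366-136728184, minus strand), the host of SNORA17A and SNORA17B, was at 28.97, 30.5, 30.8 and 29.7 CPM in WT, 30.99, 25.8, 31.7 and 31.3 CPM in shTST and 32.7, 35.1, 38.7 and 43.1 CPM in overTST. The WT libraries lay close together, shTST replicate 2 fell below them, and every overTST library lay above them. The change was 0.32 (standard error 0.072, edgeR adjusted p = 0.00141) in overTST and −0.002 in shTST (edgeR adjusted p = 0.99), with a direct difference of −0.32 (standard error 0.074, edgeR adjusted p = 0.0018). Exons of FAM69B lie opposite 25.2% of its exonic bases, and FAM69B did not pass in any comparison.

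SNHG17 (chr20:38420588-38435353, minus strand), the host of SNORA71, had 11.9, 12.7, 12.7 and 10.4 CPM in WT, 14.8, 11.1, 15.5 and 15.03 CPM in shTST and 15.3, 16.8, 14.3 and 16.9 CPM in overTST. All overTST libraries were above WT, and shTST replicate 2 was within the WT range while the other 3 shTST libraries were above it. The log2 fold change was 0.41 (standard error 0.086, edgeR adjusted p = 0.000774) in overTST and 0.25 (standard error 0.095, edgeR adjusted p = 0.0801) in shTST, where it passed without replicate 2 (edgeR adjusted p = 0.0074). SNHG8, the host of SNORA24, and SNHG10, the host of the Cajal body RNA SCARNA13, were at 13.2 to 16.3 and 11.1 to 12.9 CPM in WT and at 16.5 to 19.0 and 13.3 to 16.6 in overTST. Their log2 fold changes in overTST were 0.33 (standard error 0.082, edgeR adjusted p = 0.00323) and 0.33 (standard error 0.086, edgeR adjusted p = 0.00415). After the length correction neither passed, at 0.15 (edgeR adjusted p = 0.146) for SNHG8 and 0.19 (0.11) for SNHG10. GLRX5, a glutaredoxin gene of iron-sulfur cluster synthesis whose exons lie opposite 20.1% of the exonic bases of SNHG10, was at 225 CPM in WT and rose by 0.17 in overTST (edgeR adjusted p = 0.00751).

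SNHG14 was the member that moved in opposite directions, although its call in overTST was lost with the length correction. It is a long host on chromosome 15 (chr15:24978583-25419462, plus strand) whose introns hold the SNORD115 and SNORD116 arrays and whose far end runs antisense to UBE3A, the ubiquitin ligase gene of Angelman syndrome. It was at 27.8, 26.8, 26.8 and 22.7 CPM in WT, 30.8, 27.2, 32.4 and 31.7 CPM in shTST and 22.1, 21.3, 19.03 and 21.1 CPM in overTST. Every overTST library lay below every WT and shTST library, and 1 shTST library, replicate 2, lay within the WT range. SNHG14 rose by 0.23 (standard error 0.069, edgeR adjusted p = 0.0255) in shTST and changed by −0.32 (standard error 0.075, edgeR adjusted p = 0.0019) in overTST on the same scale, and the direct difference was 0.55 (standard error 0.073, edgeR adjusted p = 5.75e-06). The record has 36573 exonic bases. With the length correction the change in overTST was −0.08 (edgeR adjusted p = 0.438), that in shTST 0.26 (0.012), and the direct difference 0.33 (0.00133). The call in shTST was lost without WT replicate 4 (edgeR adjusted p = 0.102), shTST replicate 1 (0.0572), shTST replicate 3 (0.0782) or shTST replicate 4 (0.0734). UBE3A did not pass in any comparison.

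**Figure D3:**
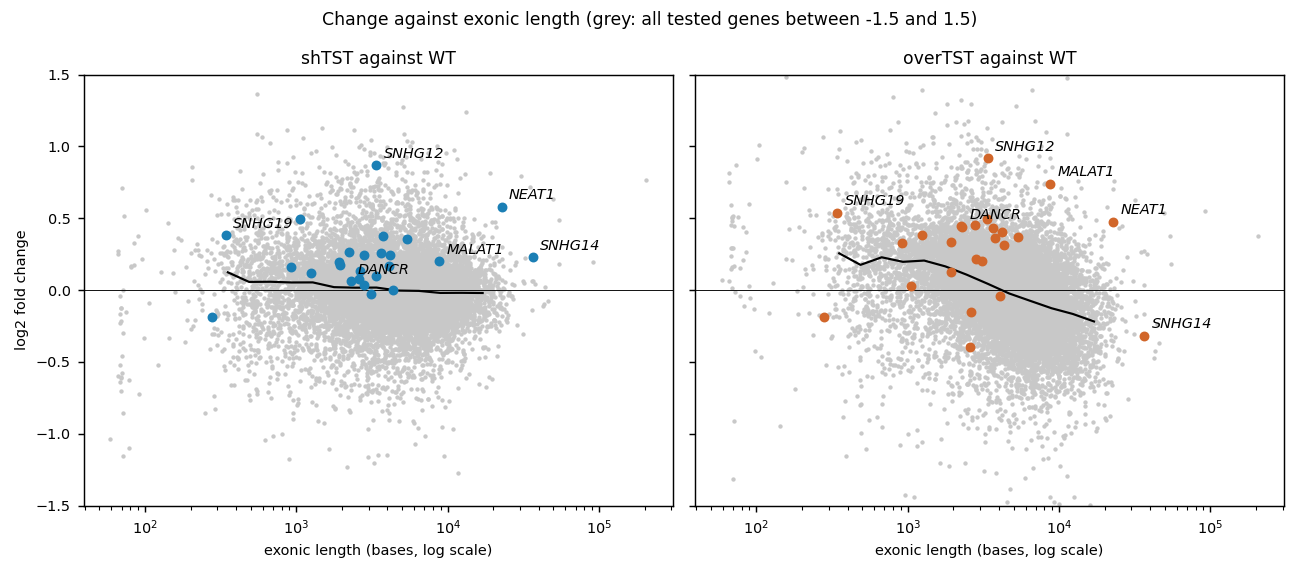
log2 fold change (y axis) against exonic length in bases (x axis, log scale) for all genes tested (grey) and the 25 tested members (coloured), in shTST (left) and overTST (right), with the black line joining the medians of length bins. The line declines with length in overTST, where MALAT1 (0.74) and NEAT1 (0.48) lie above it and SNHG14 (−0.32) lies among the longest genes.

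In the direct comparison of the lines, 8 members passed, 1 higher in shTST (SNHG14) and 7 lower (DANCR, MALAT1, SNHG7, SNHG5, EPB41L4A-AS1, SNHG6 and ZFAS1). Over the 14883 genes tested, 16.9% were higher and 16.1% lower. The remaining 8 tested members, SNHG3, SNHG4, SNHG11, SNHG20, SNHG21, SNHG22, SNHG25 and SNHG26, passed in no comparison as fitted, with log2 fold changes of −0.19 to 0.50 in shTST and −0.40 to 0.21 in overTST. SNHG21 had the highest of these, 0.50 in shTST (edgeR adjusted p = 0.0738), with every shTST library above every WT library, and 72.9% of its exonic bases are shared with other genes. SNHG3, the host of SNORA73, had a direct difference of 0.21 (edgeR adjusted p = 0.0563). After the length correction 2 of these members passed the direct test, SNHG21 at 0.62 (edgeR adjusted p = 0.0221, against 0.0707 without it) and SNHG26 at 0.37 (0.0401, against 0.10). SNHG3 passed it with no filter (edgeR adjusted p = 0.0194), with the length correction and replicate block together (0.0498) and without shTST replicate 2 (0.00805), overTST replicate 4 (0.0325) or WT replicate 2 (0.0466), and SNHG21 without overTST replicate 4 (0.0448). Against WT, SNHG3 passed in shTST without shTST replicate 2 (edgeR adjusted p = 0.0219) and SNHG21 without WT replicate 2 (0.0435).

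Single libraries were low or high in many members. Summed over the members, the level was 689 to 766 CPM in WT (728.6 ± 34.1, SD, n = 4), 793 to 896 in shTST (851.3 ± 48.7) and 896 to 1026 in overTST (970.1 ± 56.3), so that WT lay below both engineered lines, while the highest shTST library was just above the lowest overTST library. shTST replicate 2 had the lowest value of its group in 15 of the 25 tested members and the highest in none, and overTST replicate 1 had the lowest in 19. overTST replicate 4 had the highest in 14 and the lowest in none. Such ranks are not given over all genes, so these counts do not show whether a library was low or high in the members alone. In shTST replicate 2, 24354 genes had a count, against 21702 to 22364 in the other shTST libraries. Without shTST replicate 2, 12 members passed in shTST, and without shTST replicate 1, 6 did. The 17 calls in overTST were all kept with any 1 library left out.

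Among other annotated groups, protein-coding genes with a snoRNA gene inside their span were 26 higher and 20 lower of 221 tested in shTST (median 0.03) and 53 higher and 63 lower of 221 in overTST (median 0.01). Long noncoding genes other than the members had 49 higher and 25 lower of 1491 in shTST (median 0.07) and 131 higher and 47 lower of 1438 in overTST (median 0.11). Over all genes tested, 6.69% were higher and 9.4% lower in shTST, and 15.7% and 18.2% in overTST. These counts describe the groups, and no test of a difference between groups of genes was made.

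**Figure D4:**
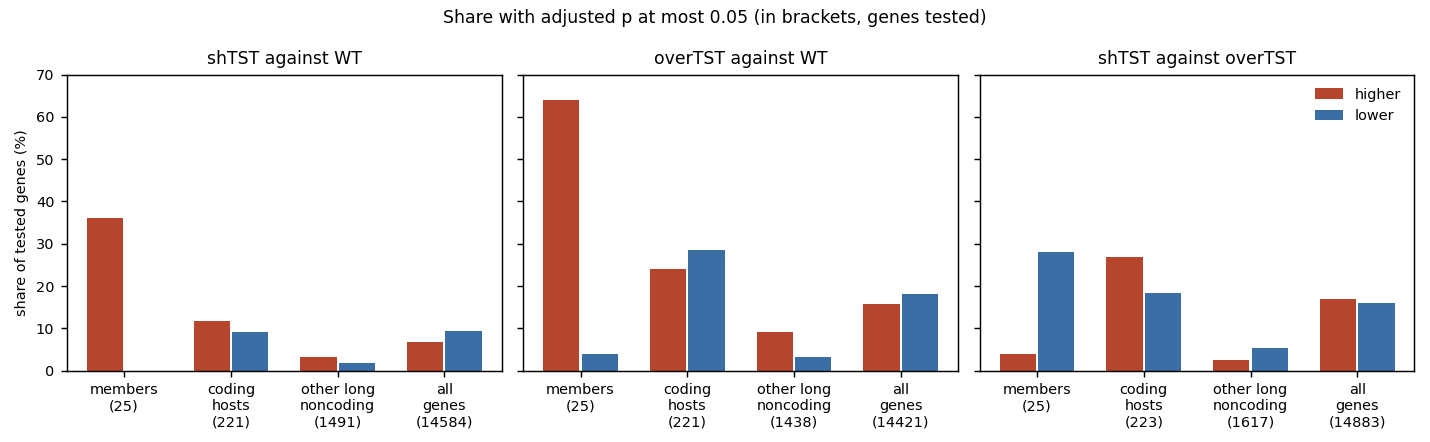
Share of tested genes in % (y axis, from 0) that were higher (red) or lower (blue) at an adjusted p of 0.05 or less, for the members, protein-coding snoRNA hosts, other long noncoding genes and all genes tested (x axis, number tested in brackets), in the 3 comparisons. The members have 36% higher in shTST and 64% higher in overTST, against 6.69% and 15.7% of all genes.

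Proteins that act on the products of these genes were read from lists. Beside the counts of this and the following lists stand the shares over all genes tested. All values of the lists are without the length correction. These were 6.69% higher and 9.4% lower in shTST, and 15.7% higher and 18.2% lower in overTST. Of 18 genes for snoRNP core and assembly proteins, 4 rose in shTST and 9 in overTST and none fell in either, with medians of 0.10 and 0.17. At an unadjusted p under 0.05, 0 were lower in shTST and 1 in overTST, and DESeq2 and limma-voom called 0 lower in each. NOP56, a core box C/D protein, rose by 0.24 (standard error 0.049, edgeR adjusted p = 0.00214) in shTST and by 0.29 (0.054, 0.00023) in overTST. NOP58, its partner, rose by 0.15 in shTST (edgeR adjusted p = 0.0247) and by 0.38 in overTST (3.34e-06). NUFIP1, an assembly factor, rose by 0.26 in shTST (edgeR adjusted p = 0.0126) and was at 0.09 in overTST (0.383). RUVBL2, an ATPase of the assembly complex, was lower in shTST than in overTST by a log2 difference of −0.26 (edgeR adjusted p = 0.000112).

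Of 19 genes of nonsense-mediated decay and the exon junction complex, 7 rose and 3 fell in shTST, and 6 rose and 6 fell in overTST. UPF3B, an exon junction adaptor of the decay pathway, rose by 0.59 in shTST (standard error 0.085, edgeR adjusted p = 9.84e-05) and by 0.75 in overTST (edgeR adjusted p = 1.69e-06). UPF3A, its paralog, rose by 0.18 in shTST (edgeR adjusted p = 0.0283) and by 0.53 in overTST (3.57e-07). NBAS, a Golgi-to-ER transport and decay factor, had a log2 fold change of −0.30 in shTST (edgeR adjusted p = 0.000519) and −0.58 in overTST (3.88e-07). SMG1, the kinase of UPF1, was higher in shTST than in overTST by 0.65 (edgeR adjusted p = 3.43e-08).

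Paraspeckle protein genes, the partners of NEAT1, had 6 of 10 higher and none lower in shTST and 6 higher and 1 lower in overTST. The count of 0 lower in shTST was also 0 at an unadjusted p under 0.05, by DESeq2 and by limma-voom. SFPQ rose by 0.20 in shTST (edgeR adjusted p = 0.00254) and by 0.14 in overTST (0.024). DAZAP1 was at 0.10 in shTST (edgeR adjusted p = 0.0757) and rose by 0.20 in overTST (0.00165). Of 10 nuclear speckle genes, whose proteins share a compartment with MALAT1, 4 rose and 0 fell in shTST (1 was lower at an unadjusted p under 0.05, by DESeq2 and by limma-voom), and 3 rose and 2 fell in overTST, with SRSF5, a splicing factor, higher in both (0.23 and 0.24, edgeR adjusted p = 0.00364 and 0.000982) and SRRM2, a speckle scaffold, at −0.34 in overTST (4.5e-05). Of 13 genes of nuclear RNA decay and 3′ end protection, 2 rose and 1 fell in shTST and 2 rose and 5 fell in overTST. PABPN1, a nuclear poly(A)-binding protein, rose by 0.19 in shTST (edgeR adjusted p = 0.0125) and 0.43 in overTST (5.24e-06), and METTL3, an RNA methyltransferase, had −0.20 (0.011) and −0.27 (0.000677). Of 12 other long noncoding RNAs, 3 rose and 0 fell in shTST (also 0 at an unadjusted p under 0.05, by DESeq2 and by limma-voom), among them OIP5-AS1 by 0.23 (edgeR adjusted p = 0.00593) and NORAD by 0.17 (0.0228). In overTST 3 rose and 1 fell, with KCNQ1OT1 higher by 0.55 (edgeR adjusted p = 4.06e-06). KCNQ1OT1 also rose in shTST, by 0.20 (edgeR adjusted p = 0.0471).

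The snoRNAs themselves were hardly counted. The annotation has 137 snoRNA genes inside the members on the same strand, 84 of them in SNHG14. Of the 39 that overlap an exon of their host, 1 had any count, and of the other 98, 39 had, with 1290 counts over all 12 libraries. The sum per library was 94 to 128 counts in WT, 110 to 161 in shTST and 74 to 111 in overTST. Scaled to library size this was 2.81 to 3.43 CPM in WT, 3.82 to 4.67 in shTST and 3.13 to 4.68 in overTST, so that every shTST library was above WT while overTST overlapped it. Of all single genes tested, 8.37% had every shTST library above WT. The sum leaned on SNORD104, which held 600 of the 1290 counts. It had 37 to 49 counts per library in WT, 52 to 73 in shTST and 33 to 50 in overTST. Over the 3 snoRNA genes that passed the filter in a comparison the sum was 57 to 84, 70 to 103 and 47 to 73 counts, or 1.75 to 2.31, 2.45 to 2.99 and 1.99 to 3.32 CPM. Of 6 short RNAs without a poly(A) tail that were examined, 1 passed the filter. SNORD104 and SNORD12B, which were chosen after their values were seen, are shown as examples of intron-encoded box C/D snoRNAs that did receive counts, with the C box TGATGA and the D box CTGA in capitals (GENCODE 29 transcripts, GRCh38).
SNORD104 (in SNHG25, chr17:64146083-64146152, plus strand): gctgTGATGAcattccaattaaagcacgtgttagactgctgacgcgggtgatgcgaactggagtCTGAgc
SNORD12B (in ZFAS1, chr20:49280319-49280409, plus strand): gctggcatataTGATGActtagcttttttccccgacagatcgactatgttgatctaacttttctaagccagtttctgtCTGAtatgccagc

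SNORD104 had 33 to 73 counts per library, with a log2 fold change of 0.71 in shTST (standard error 0.19, edgeR adjusted p = 0.0117) and 0.51 in overTST (0.21, 0.0567), while its host SNHG25 had −0.19 in both (edgeR adjusted p = 0.672 and 0.62). SNORD12B had 6 to 23 counts per library and log2 fold changes of −0.73 in shTST (standard error 0.35, edgeR adjusted p = 0.159) and −0.05 in overTST (0.34, 0.923), in comparisons in which its host ZFAS1 rose. Neither the selection of RNA for the libraries nor the treatment of reads that fall on 2 genes is given in the sources used here.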

How the data were processed

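Poly(A) or total RNA selection, read length and use of strand are not given in the sources used here. For each of 12 HepG2 libraries the authors deposited raw read counts by Ensembl gene identifier, as whole numbers without normalization, beside the exon positions and exonic length. The submitters' processing notes name Trimmomatic 0.36, STAR 2.5.2b, featureCounts of Subread 1.5.2 and GRCh38. Labels gave the groups and replicate numbers. The methods of the study gave the glycine dose and the time.

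Symbols came from GENCODE 29, which holds 56898 of the 57500 identifiers. The members, the lists and the tests were chosen with earlier results of these data known. Genes were kept by filterByExpr of edgeR and normalised by TMM. The quasi-likelihood test of edgeR was used, with p-values adjusted by Benjamini and Hochberg over all genes tested and a threshold of 0.05. A fit of 8 libraries served each contrast to WT, and 1 of all 12 the contrast of shTST to overTST. Standard errors are the log2 fold change over the square root of F, and intervals of fold changes are at 95%. CPM use TMM sizes over all 12 libraries. Depth was 22911380 to 45120508 counts per library, which limits members with few counts. Values per library were given for the 14 members with the smallest adjusted p among those that passed in a comparison, which include the 6 named singly in the rule. From each list at most 2 genes with the smallest p per comparison were named, and neighbours (opposite strand, overlapping or starting within 1000 bases) where they passed with their member. Some genes that this rule names are not reported here.

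The alternatives were DESeq2, limma-voom, RLE and upper-quartile normalization, no filter, more than 1 CPM in 4 libraries, the other set of libraries in the fit, counts without mitochondrially encoded genes, a block for replicate number, a lowess correction (span 0.3) of the trend with exonic length, with and without the block, and leaving out each library. HULC, a long noncoding RNA of the lists, had no matching record and was not used here. Versions were edgeR 4.0.16, limma 3.58.1 and DESeq2 1.42.0 under R 4.3.3, and pandas 2.3.3 and matplotlib 3.10.9 under Python 3.11.15.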

Additional observations from a re-analysis of the deposited data

Results flagged for a closer look

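In groups of 4, a library stood apart from the other 3 (Dixon's test at 95%) in 3 of the 51 groups examined over 17 members, and chance flags about 1 in 20. DANCR was at 112 CPM in WT replicate 2. SNHG17 was at 11.1 CPM and SNHG7 at 25.8 CPM in shTST replicate 2, the library that had the lowest value of its group in 15 of the 25 tested members.

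The effects of shTST and overTST differed by the direct test in 8 members of the 25 tested, with 4% higher and 28% lower in shTST. Over all 14883 genes tested, 16.9% were higher and 16.1% lower. In both directions together, members were called about as often as all genes. The log2 effect of shTST minus that of overTST was −0.38 for DANCR, −0.40 for EPB41L4A-AS1, −0.54 for MALAT1, 0.55 for SNHG14, −0.21 for SNHG5, −0.27 for SNHG6, −0.32 for SNHG7 and −0.18 for ZFAS1. After the length correction the calls of SNHG6 and ZFAS1 were lost (edgeR adjusted p = 0.222 and 0.342).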

How the results depend on the processing

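Over the 11 alternatives other than leaving out a library, 8 to 11 members were called in shTST (9 as reported), 14 to 17 in overTST (17) and 8 or 9 in the direct test (8), and with each library left out these were 6 to 12, 17 and 6 to 10. Under every alternative the calls against WT in shTST were all higher. In overTST the length correction gave 14 members, all higher, with SNHG8, SNHG10 and SNHG14 lost, and in the direct test it gave 3 higher (SNHG14, SNHG21 and SNHG26) and 5 lower. All of the 19 alternatives kept 14 of the 17 calls in overTST, 6 of the 9 in shTST and, of its 23, 6 of the 8 in the direct test. Values near 0 changed sign without passing. SNHG7 in shTST (−0.002) was 0.00075 with DESeq2, 0.00077 with RLE, 0.019 with upper-quartile normalization, 0.0024 with the filter of more than 1 CPM, 0.00326 without mitochondrially encoded genes and 0.0019 with the length correction, and −0.029 to 0.069 with a library left out. In the direct test NEAT1 (0.10) was −0.097 with the length correction and −0.106 with the block as well, SNHG16 (−0.009) was 0.0105 with no filter, and with a library left out SNHG1 (0.01) ranged from −0.034 to 0.096, SNHG12 (−0.05) from −0.28 to 0.15 and SNHG16 from −0.035 to 0.019. The cause of these changes was not tested.

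With the replicate number as a block, 10, 17 and 8 members were called. Same-numbered libraries of different groups had correlations of their deviations of −0.0527 to 0.0801, and differently numbered ones −0.106 to 0.0781. Some libraries correlated best with their own number and others did not. These ranges overlap, so the correlations do not decide whether the numbers pair the libraries weakly. Members under about 1 CPM had wide intervals at this depth.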
